A study of Xiphophorus maculatus with 24 samples.

Results

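Cryptochromes are flavoproteins related to the DNA repair enzymes called photolyases. In vertebrates the cry1 and cry2 proteins bind Period proteins and repress the Clock and Arntl activators, which in turn drive cry and per transcription, so that a loop of about a day is closed in each cell. Fish carry more cry genes than mammals, and peripheral fish tissues can be set by light directly. Described here are 3 cryptochrome genes of the skin of the southern platyfish Xiphophorus maculatus, picked by name among the 24209 genes of the count table: cry1ab-Ohnolog2 (ENSXMAG00000017466), cry1ba (ENSXMAG00000009278) and cry2 (ENSXMAG00000006417). An Ohnolog is a gene copy kept after a whole-genome duplication. The other copy, cry1ab-Ohnolog1 (ENSXMAG00000001744), was used for comparison. In the RefSeq annotation of the platyfish assembly X_maculatus-5.0-male, the protein-coding model starting nearest to the study's coordinate for cry1ab-Ohnolog2 was LOC102219615 on chromosome 2, from 17084212 to 17094297, and that for cry1ab-Ohnolog1 was LOC102223115 on chromosome 17, from 9176940 to 9189241.

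Skin was taken from untreated male fish of the inbred line X. maculatus Jp 163 A, kept at 13 h of light and 11 h of dark and fed at set hours. The first collection held 16 fish aged 24 months, 2 at each of 8 clock times 3 h apart, and the second held 8 fish aged 12 months, 2 at each of 8AM, 2PM, 8PM and 2AM. They are called the 24-month and the 12-month fish here, and each set a collection. Their labels also carry dates of different years, without saying whether these are dates of collection or of sequencing. The parts of age, year, any difference in inbred generation and any batch that goes with the date cannot be told apart in a difference between them. Each library came from 1 fish, named below by its clock time and the letter in its label. Lights came on shortly before 8AM and went off shortly after 8PM, so that 11PM, 2AM and 5AM fell in the dark. Fitted peaks are given in Zeitgeber time (Zt), the hours after lights on.

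Libraries held 25736825 to 36066368 counts in genes, and values are given as CPM, the counts scaled to a fixed library total. Levels were not set side by side between genes, since exon lengths were not used. One library stood apart before any cryptochrome was considered. In fish A at 5PM of the 24-month fish, 36.6% of 13243 expressed genes lay below 0.5 times their median over the 24-month fish, against at most 3.76% in the other 15 libraries, and its median correlation with them was 0.767, against 0.905 to 0.953 for the rest. It was also the shallowest library and had the fewest genes with counts (19609). Values that moved most without it are given both ways. Krt5, Epcam and Tp63, the 3 skin epithelium markers matched of 10 sought, had counts in every library, with a summed level of 16306 to 40967 CPM in the 24-month and 36153 to 42283 CPM in the 12-month fish. The 5 matched skeletal muscle markers of 10 sought (ckma, ckmb, mylpfa, tnnt3a and neb) summed to 2358 to 11791 CPM and 2418 to 4989 CPM, in the same order, so muscle RNA was present throughout. In fish A at 5PM that sum was 8485 CPM, against 4464 CPM in fish B. The part of muscle in the results was not tested, and in such bulk samples fewer cells of a type cannot be told apart from less RNA per cell.

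The 3 genes had different days. In the 24-month fish cry1ab-Ohnolog2 was highest in the morning at 11AM and lowest at 11PM and 2AM, with a 4.03-fold range of time means. Cry1ba was low through late night and at 8AM, high across the light phase, and spanned 12.51-fold. Cry2 spanned 1.68-fold, less than the median of 2.03-fold over the 16959 genes expressed. These ratios exceeded those of 91.8%, 99.2% and 26.4% of those genes, in the same order. Without fish A at 5PM cry1ba spanned 15.0-fold with its highest time at 5PM in place of 8PM, the other 2 ranges were as before, the median over genes was 1.84-fold, and the cry2 range exceeded that of 39.0% of genes.

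**Figure D1:**
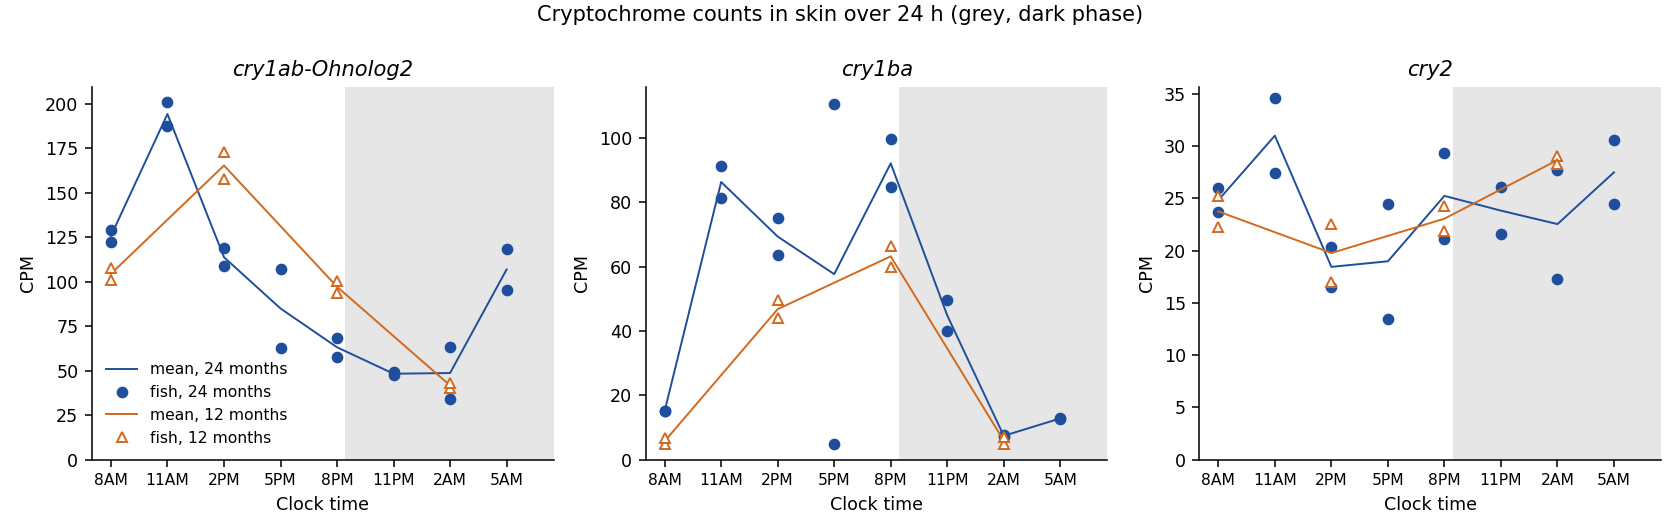
CPM of each gene (vertical axis, from 0, scaled separately per gene) against clock time (horizontal axis). Each point is 1 fish, lines join the means of 2 fish, and the dark phase is grey. In the 24-month fish cry1ab-Ohnolog2 peaked at 11AM, the 2 cry1ba values at 5PM lay 22.9-fold apart, and cry2 stayed between 13.5 and 34.6 CPM.

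For cry1ab-Ohnolog2, the 24-month fish had 123 and 129 CPM at 8AM, 201 and 188 CPM at 11AM, and 109 and 119 CPM at 2PM. At 5PM fish A had 62.5 CPM and fish B 107 CPM. At 8PM the values were 68.4 and 57.8 CPM, at 11PM they were 49.0 and 47.4 CPM, at 2AM they were 34.0 and 63.2 CPM, and at 5AM they were 119 and 95.1 CPM. Both 5AM fish, taken before lights on, lay above both 2AM fish, and the 11AM pair stood above every other 24-month library. The mean was 194 ± 9.49 CPM (SD, n = 2) at 11AM and 48.2 ± 1.15 CPM (SD, n = 2) at 11PM. Ordered by level, neighbouring times overlapped in 5 of 7 steps, and only 11AM and 8AM separated from the next below. Going round the clock instead, the 2 fish of one time lay wholly above or below the 2 of the next in 6 of 8 steps, where the background over all expressed genes and steps was 46%.

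A 24-h cosine fitted to the counts of the 24-month fish with edgeR's quasi-likelihood test gave cry1ab-Ohnolog2 an amplitude (the distance from the mean level to the peak) of 0.96 ± 0.11 (SE) on the log2 scale, with a peak at Zt 3.61 and a Benjamini-Hochberg adjusted p of 0.000321. The edgeR adjusted p ranged from 0.000222 to 0.00206 when each of the 16 libraries was left out. Of all 19212 genes tested, 1.5% passed in this comparison, and the median amplitude was 0.28. The test of any difference among the 8 times, which 1.41% of genes passed, gave adjusted p = 0.0191 in edgeR, but p rose above 0.05 without any one of 9 libraries, to 0.113 at most without fish A at 11AM.

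For cry1ba, both 24-month fish at 8AM had 15.1 CPM, and the values 3 h later were 91.3 and 81.2 CPM, which made a 5.73-fold step in the mean. They were 63.7 and 75.0 CPM at 2PM, 99.6 and 84.6 CPM at 8PM, and 49.6 and 39.9 CPM at 11PM. At 2AM they were 7.77 and 6.95 CPM, and at 5AM they were 12.7 and 12.9 CPM. Apart from 5PM, the 2 fish of each time lay within 1.24-fold of each other, so the rise after lights on and the fall in the dark were each far larger than the difference between fish. At 5PM fish A had 4.82 CPM, the lowest of all 24-month libraries, and fish B had 110 CPM, the highest. The mean there, 57.6 ± 74.7 CPM (SD, n = 2), describes neither fish.

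The cosine fit gave cry1ba an amplitude of 1.67 ± 0.32 (SE) on the log2 scale and a peak at Zt 8.54, later than that of cry1ab-Ohnolog2, though the difference between peaks was not tested. The edgeR adjusted p was 0.0593 with all 16 libraries. Without fish A at 5PM, where 3.64% of genes passed, it was 0.00124, with an amplitude of 1.90 and a peak at Zt 8.65. With all 24 libraries and the collection as a term, where 3065 of 19783 genes passed, it was 0.00022 in edgeR, and the amplitude was again 1.90. The test of any difference among 8 times, which 1.41% of genes passed, gave an edgeR adjusted p of 0.0891 with all libraries. Without either fish at 5PM, 1 fish is left at that time, so those fits are not read for this test. With all 16 libraries the DESeq2 adjusted p was 1.30e-05 for the test among 8 times, where 4200 of 19212 genes passed. It was 0.00159 for the cosine, where 1692 passed, so both calls differed between the tools.

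For cry2, the 24-month libraries ran from 13.5 to 34.6 CPM with a median of 24.4 CPM. The lowest was fish A at 5PM and the highest fish A at 11AM, where the pair had 34.6 and 27.4 CPM. The pairs were 23.7 and 26.0 CPM at 8AM, 16.5 and 20.3 CPM at 2PM, and 13.5 and 24.5 CPM at 5PM. They were 29.3 and 21.1 CPM at 8PM, 21.54 and 26.1 CPM at 11PM, 27.7 and 17.3 CPM at 2AM, and 30.5 and 24.4 CPM at 5AM. Ordered by level, all 7 neighbouring pairs of times overlapped. The SD on the log2 scale was 0.34 between the fish of a time and 0.26 among the 8 time means. For cry1ab-Ohnolog2 it was 0.32 between fish and 0.72 among times. The mean of a pair varies less than a single fish, so the order of the cry2 values does not show a flat course. No daily change of cry2 was detected in the 24-month fish: the fitted amplitude was 0.15 ± 0.10 (SE), smaller than that of 78.6% of genes, with an edgeR adjusted p of 0.582 for the cosine and 0.521 for any difference among times. These p values do not show that cry2 was constant.

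Whether cry1ba has one maximum a day or a pair was examined in 3 ways. The means of the 24-month fish trace a high at 11AM (86.3 ± 7.13 CPM, SD, n = 2), lower values at 2PM (69.3 ± 8.00 CPM) and 5PM, and a high at 8PM (92.1 ± 10.6 CPM). The first measure was a contrast of 11AM and 8PM with 2PM and 5PM, positive where there is a midday dip. It was 0.47 on the log2 scale for cry1ba, with a 95% interval of −0.65 to 1.60 and an edgeR adjusted p of 0.792. Without fish A at 5PM the contrast was 0.03 (−0.25 to 0.30), and without fish B it was 1.93 (1.62 to 2.24), each with 1 fish left at 5PM. The low mean at 5PM and the size of this contrast therefore rested on fish A at 5PM, the library that stood apart over all genes. The contrast averages 2PM with 5PM, so it cannot decide on a dip at 2PM alone. Both 2PM fish lay below both fish at 11AM, both fish at 8PM and fish B at 5PM (110 CPM). From 11AM to 2PM the mean fell to 0.803 of its value. A dip at 2PM alone was not tested.

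**Figure D2:**
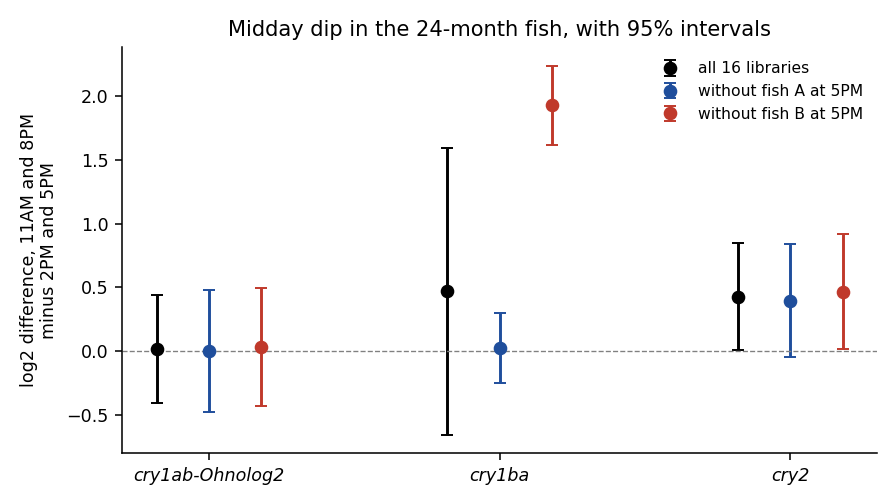
Estimated log2 difference (vertical axis) between 11AM with 8PM and 2PM with 5PM for each gene in the 24-month fish, positive for a dip at midday; bars are 95% intervals of the edgeR fit, and colours give the libraries used. For cry1ba the estimate moved from 0.47 to 0.03 without fish A and to 1.93 without fish B at 5PM, while those of the other genes moved little.

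For cry1ab-Ohnolog2 the same contrast was 0.01 (−0.41 to 0.44), with no sign of a dip, and for cry2 it was 0.43 (0.01 to 0.85), with an edgeR p of 0.0471 before adjustment and 0.781 after it. Over all genes 0% passed in this comparison, with 793 of 19212 at an unadjusted p under 0.05 in edgeR and 2 called by DESeq2. Secondly, a 12-h wave added to the cosine had an amplitude of 0.69 ± 0.27 (SE) in cry1ba, larger than in 97.5% of genes, 0.13 ± 0.11 in cry1ab-Ohnolog2 and 0.16 ± 0.10 in cry2. The edgeR adjusted p values were 0.532, 0.894 and 0.826. Again 0% of genes passed, with 1963 at an unadjusted p under 0.05 in edgeR and 545 called by DESeq2. For cry1ba the 12-h amplitude was 0.55 without fish A at 5PM, with an edgeR adjusted p of 0.282.

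Thirdly, a rank test asked how well the 8 means climb to 1 peak and descend again, with an exact p over all orders of the means and rises of 3 to 5 steps. Cry1ab-Ohnolog2 passed at the threshold of 0.01, with an exact p of 0.00992 and a best peak at 11AM, beside 4.65% of the 16963 expressed genes. Its exact p was 0.052 without fish B at 5PM. Cry1ba did not pass, with an exact p of 0.261 that became 0.0361, and a best peak at 5PM, without fish A at 5PM. Cry2 had an exact p of 0.713. A gene can miss this test through a pair of peaks or through a plateau, and the ranks do not separate these.

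In the 12-month fish, sampled at 4 times, cry1ab-Ohnolog2 was highest at 2PM and cry1ba at 8PM. At the same 4 times of the other collection, cry1ba was also highest at 8PM. There cry1ab-Ohnolog2 was highest at 8AM, with a mean of 126 CPM against 114 CPM at 2PM. So cry1ab-Ohnolog2 was highest before cry1ba in both collections, but its highest time differed. No peak was fitted to the 12-month fish alone. Cry1ab-Ohnolog2 had 101 and 108 CPM at 8AM, 173 and 158 CPM at 2PM, 101 and 93.8 CPM at 8PM, and 40.3 and 42.9 CPM at 2AM. Cry1ba had 4.80 and 6.57 CPM at 8AM, 44.0 and 49.5 CPM at 2PM, 66.4 and 59.9 CPM at 8PM, and 4.86 and 6.87 CPM at 2AM. Both changed over the 4 times, with edgeR adjusted p values of 2.44e-05 and 1.62e-05, but so did 43.2% of the 18995 genes tested. The time means spanned 3.97-fold for cry1ab-Ohnolog2 and 11.1-fold for cry1ba, beside a median of 1.49-fold over expressed genes. At these 4 times of the other collection they spanned 2.59-fold and 12.51-fold, in the same order of genes. The 4 times cannot resolve a midday dip, since no fish was taken at 11AM or 5PM.

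Cry2 in the 12-month fish had 25.2 and 22.3 CPM at 8AM, 17.02 and 22.5 CPM at 2PM, 21.9 and 24.2 CPM at 8PM, and 29.0 and 28.3 CPM at 2AM. Both night fish lay above all 6 light-phase fish, an order that 16.3% of expressed genes shared. The time means spanned 1.45-fold, and the edgeR adjusted p over the 4 times was 0.0942. The SD on the log2 scale was 0.17 between the fish of a time and 0.23 among the 4 time means. Without fish B at 2PM, which left a single fish at that time, the call changed. In the 24-month fish the 2AM pair, at 27.7 and 17.3 CPM, was not set apart in this way. 2PM was the lowest time of cry2 in both collections, at 18.4 ± 2.70 and 19.8 ± 3.88 CPM (SD, n = 2 each).

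Light-phase and dark-phase fish were then compared directly. In the 24-month fish, cry1ab-Ohnolog2 ran from 57.8 to 201 CPM with a median of 114 CPM in 10 light-phase fish, and from 34.0 to 119 CPM with a median of 56.1 CPM in 6 dark-phase fish. Cry1ba ran from 4.82 to 110 CPM (median 78.1 CPM) in the light and from 6.95 to 49.6 CPM (median 12.8 CPM) in the dark. The groups overlapped for both genes. The differences were 0.89 ± 0.30 (SE) and 1.64 ± 0.58 (SE) on the log2 scale, but neither passed after adjustment in edgeR (adjusted p = 0.537 and 0.540), where 0.0208% of genes passed and 0.0156% passed as higher in the light. Without fish A at 5PM the cry1ba difference was 1.77, with an edgeR adjusted p of 0.313. With all 24 libraries and the collection as a term, where 104 of 19783 genes passed, cry1ab-Ohnolog2 had an edgeR adjusted p of 0.041. The fits of light against dark took each fish as independent, although fish came in pairs from the same clock times. For cry2 the 24-month difference was 0.06, with a 95% interval of −0.28 to 0.40. In the 12-month fish all 6 light fish lay above both dark fish for cry1ab-Ohnolog2 (background 6.77%), while for cry1ba the light and dark fish overlapped.

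The share that each gene took of the summed counts of the 4 cry1 and cry2 genes moved over the day. These shares depend on gene length as well as on transcript number, so their movement can be read and their size cannot be compared between genes. The sum itself was highest at 11AM, with 358 ± 21.8 CPM, and lowest at 2AM, with 114 ± 25.4 CPM (SD, n = 2 each). A library had 2581 to 12045 counts in the sum, and the widest exact 95% binomial interval of a share reached 1.89 percentage points either way, which covers counting error only.

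In the 24-month fish, cry1ba took 6.39% and 5.96% of the counts at 8AM, 24.4% and 23.7% at 11AM, and 30.0% and 30.7% at 2PM. Its share was highest at 8PM, with 47.1% and 48.9%, and was 35.2% and 29.8% at 11PM. By 2AM it was 8.08% and 5.26%, and at 5AM it was 4.61% and 6.03%. So the share climbed through the light phase even where the CPM did not, reaching its top just before lights off. At 5PM it was 41.9% in fish B, which lies between the values of 2PM and 8PM, and 4.80% in fish A.

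The share of cry1ab-Ohnolog2 held between 48.7% and 54.7% in the 6 fish from 8AM to 2PM and dropped to 32.3% and 33.4% at 8PM. It was 34.8% and 35.4% at 11PM, 35.4% and 47.8% at 2AM, and 43.1% and 44.5% at 5AM. At 5PM it was 62.3% in fish A and 40.7% in fish B.

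**Figure D3:**
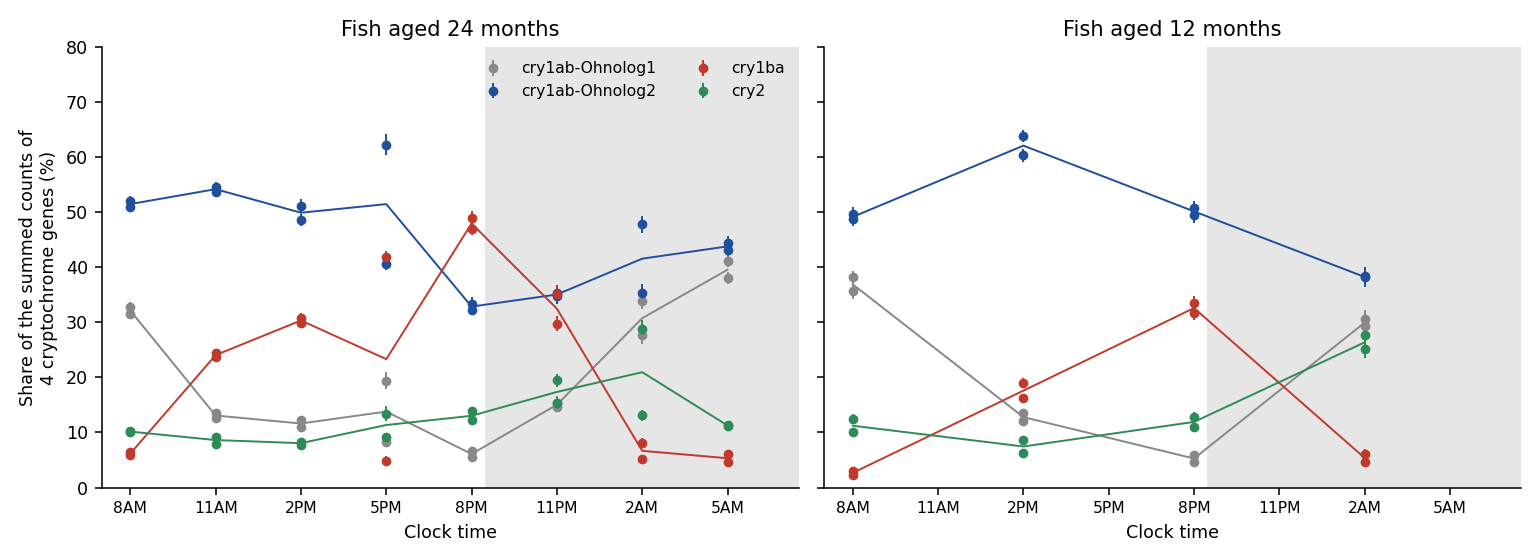
Share of the summed counts of 4 cryptochrome genes (vertical axis, percent) against clock time (horizontal axis) in the 24-month and 12-month fish. Each point is 1 fish with its exact 95% binomial interval, lines join means of 2 fish, and the dark phase is grey. The cry1ba share reached 47.1% and 48.9% at 8PM in the 24-month fish and 33.6% and 31.7% in the 12-month fish, and the mean cry2 share was highest at 2AM in both, in the 24-month fish through fish C alone.

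The cry2 share was lowest at 2PM. In the 24-month fish it was 10.2 ± 0.16% at 8AM, 8.62 ± 0.89% at 11AM, 8.06 ± 0.40% at 2PM and 21.0 ± 11.1% at 2AM (SD, n = 2 each), the last from 28.8% in fish C and 13.1% in fish D. At 11PM it was 15.3% and 19.5%, both above fish D at 2AM, so that the top at 2AM rested on fish C. Over the whole 24-month collection the share was 10.2 ± 2.21% in the light (SD, n = 10) and 16.5 ± 6.76% in the dark (SD, n = 6). This difference of −6.29 percentage points had a two-sided exact permutation p of 0.00499, or 0.02 adjusted over the 4 genes. The test took each fish as independent, although fish came in pairs from the same clock times, so its p can be too small. Without fish C at 2AM the difference was −3.83 points and the exact permutation test gave an adjusted p of 0.0706. A share also moves with the other genes of the sum, which went from 358 CPM at 11AM to 114 CPM at 2AM. The level of cry2 itself was 23.7 ± 6.18 CPM in the light (SD, n = 10) and 24.6 ± 4.69 CPM in the dark (SD, n = 6). The share test therefore does not show a rise of cry2 itself in the dark.

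The same comparison of shares gave +7.85 percentage points for cry1ab-Ohnolog2 (adjusted p = 0.125, exact permutation test). For cry1ba it gave +11.6 points (adjusted p = 0.173, exact permutation test). Both shares were higher in the light on average, but neither difference passed. The spread within a phase includes the change between clock times. The cry1ba share, for example, went from 6.17 ± 0.30% at 8AM to 48.0 ± 1.30% at 8PM (SD, n = 2 each). Without fish A at 5PM the light minus dark differences were +6.26 points for cry1ab-Ohnolog2 (adjusted p = 0.143, exact permutation test) and +13.95 points for cry1ba (adjusted p = 0.138, exact permutation test). In the 12-month fish, with 6 in the light and 2 in the dark, no exact permutation p can be below 0.0357. The differences there were +15.6 points for cry1ab-Ohnolog2, +12.3 points for cry1ba and −16.2 points for cry2, with exact permutation adjusted p values of 0.143, 0.393 and 0.143. The cry2 share of the 12-month fish was 27.6% and 25.1% at 2AM and 6.28% to 12.8% in the light, and cry1ba took 2.36% and 2.97% at 8AM and 33.6% and 31.7% at 8PM.

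The count ratio of cry1ba to cry1ab-Ohnolog2 within a library is free of library size and of anything that scales both genes alike. Its size depends on the lengths of the genes, and only its movement is read. On the log2 scale it was −3.02 and −3.10 at 8AM of the 24-month fish, −1.14 and −1.21 at 11AM, −0.77 and −0.66 at 2PM, and 0.54 and 0.55 at 8PM. It was 0.02 and −0.25 at 11PM, −2.13 and −3.18 at 2AM, and −3.23 and −2.88 at 5AM. Outside 5PM the ratio thus moved in one direction from 8AM to 8PM and back through the night, a single daily course with its top at the end of the light phase. At 5PM fish B, at 0.04, lay on that course, and fish A, at −3.70, lay below every other 24-month library.

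**Figure D4:**
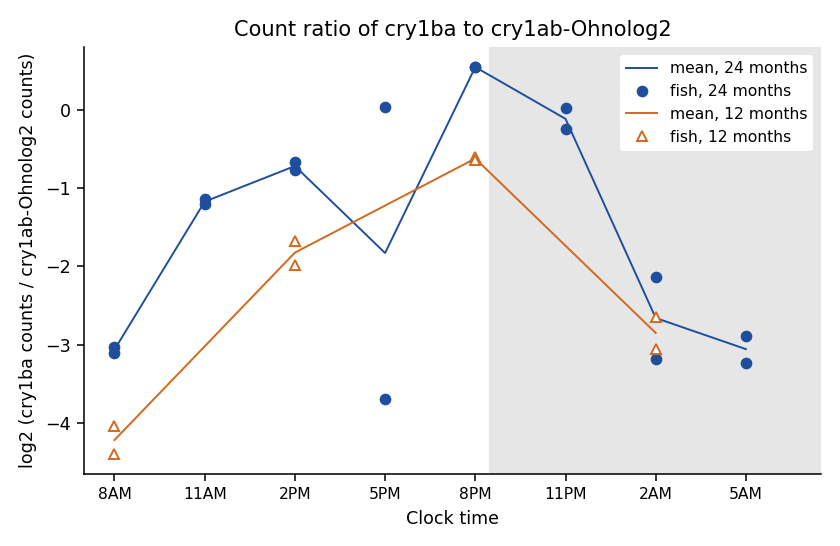
Log2 of cry1ba counts over cry1ab-Ohnolog2 counts within each library (vertical axis) against clock time (horizontal axis). Each point is 1 fish, lines join means of 2 fish, and the dark phase is grey. The ratio climbed to 0.54 and 0.55 at 8PM in the 24-month fish, and fish A at 5PM lay at −3.70.

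Evening fish (5PM and 8PM) had a mean log2 ratio of −0.64 ± 2.05 (SD, n = 4) and morning fish (8AM and 11AM) of −2.12 ± 1.09 (SD, n = 4), and the difference of 1.48 did not pass (two-sided exact permutation test, p = 0.229). Without fish A at 5PM the difference was 2.49 with an exact permutation p of 0.0286, where all 3 evening fish lay above all 4 morning fish. Fish of the same clock time were taken as independent in these tests. 8PM against 8AM over both collections gave 3.6, with all 4 evening fish above all 4 morning fish. The exact permutation p was 0.0286, the smallest that 4 against 4 allows. That test shuffled fish across the collections, whose ratios differed in level, so its p does not hold the collection fixed. Within each collection both 8PM fish lay above both 8AM fish. In the 12-month fish the ratio was −4.40 and −4.04 at 8AM, −1.98 and −1.67 at 2PM, −0.60 and −0.65 at 8PM, and −3.05 and −2.64 at 2AM.

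Between the collections at the 4 shared times, cry1ba differed in level. It was lower in the 12-month fish by 0.71 ± 0.10 on the log2 scale (SE; 95% interval of the change −0.92 to −0.50), with an edgeR adjusted p of 0.000123. In this comparison 53% of genes passed and 27.4% passed as lower in the 12-month fish. Both 24-month fish lay above both 12-month fish at each of the 4 times, as they did in 12% of expressed genes, with ratios of the 24-month to the 12-month mean of 2.65 at 8AM, 1.48 at 2PM, 1.46 at 8PM and 1.26 at 2AM. The averaged difference was 0.17 (−0.09 to 0.42) for cry1ab-Ohnolog2 and 0.06 (−0.18 to 0.31) for cry2, and neither passed. Without fish D at 2AM of the 24-month fish cry1ab-Ohnolog2 was 0.31 higher in the 12-month fish and passed, with an edgeR adjusted p of 0.00135. None of the 4 shared times includes the fish that stood apart. The 4 dermis markers matched of 6 sought (col1a2, col5a1, dcn and lum) moved with the collection, summing to 970 to 5343 CPM (median 1825 CPM) in all 24-month fish and to 5551 to 9376 CPM (median 7517 CPM) in the 12-month fish, without overlap. Hbba2, the 1 red blood cell marker matched of 5 sought, had a median of 42.3 CPM (24.5 to 105 CPM) in the 24-month and 11.7 CPM (7.03 to 38.1 CPM) in the 12-month fish. Their part in the cry1ba difference was not tested.

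For cry1ab-Ohnolog2 the sign of the difference changed over the 4 times. The 24-month fish were above the 12-month fish at 8AM (ratio of means 1.20) and below them at 2PM (0.688) and 8PM (0.650), and overlapped them at 2AM. The test of whether the time course differed between collections, which 11.8% of genes passed, gave edgeR adjusted p values of 0.102 for cry1ab-Ohnolog2, 0.0697 for cry1ba and 0.650 for cry2, so none of the 3 passed in edgeR with all libraries. The edgeR call of cry1ab-Ohnolog2 changed without fish C or fish D at 2AM of the 24-month fish. That of cry1ba changed without that fish C or without fish B at 8AM of the 12-month fish. Each of these fits leaves 1 fish at a time, and the share of 11.8% does not apply to them. The DESeq2 adjusted p values were 0.0227, 0.00809 and 0.696, where 4367 of 19550 genes passed. The cause of this difference between tools was not tested.

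Of 13 other clock and photolyase genes, 10 passed the 24-h cosine test in the 24-month fish, beside 1.5% of all genes, and 12 without fish A at 5PM, where 3.64% of genes passed. Of the activators, arntl1 was fitted at Zt 9.47, clocka at Zt 9.04, clockb at Zt 10.7 and arntl2-Ohnolog1 at Zt 9.30, within a few hours of cry1ba, while arntl2-Ohnolog2 was fitted later, in the dark, at Zt 15.4. The repressors per3 (Zt 0.20), per1b (Zt 21.7) and cry1ab-Ohnolog1 (Zt 24.0) peaked around the end of the night. Per2-Ohnolog1 was fitted at Zt 4.24 and cry-dash, a photolyase relative, at Zt 3.69, near the Zt 3.61 of cry1ab-Ohnolog2. Per2-Ohnolog2, cpd photolyase and cry5 were those that did not pass. The fitted 24-h amplitudes of the genes that passed ran from 0.68 for cry-dash to 2.47 for per1b on the log2 scale, and the cry2 amplitude of 0.15 lay below those of all 13.

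**Figure D5:**
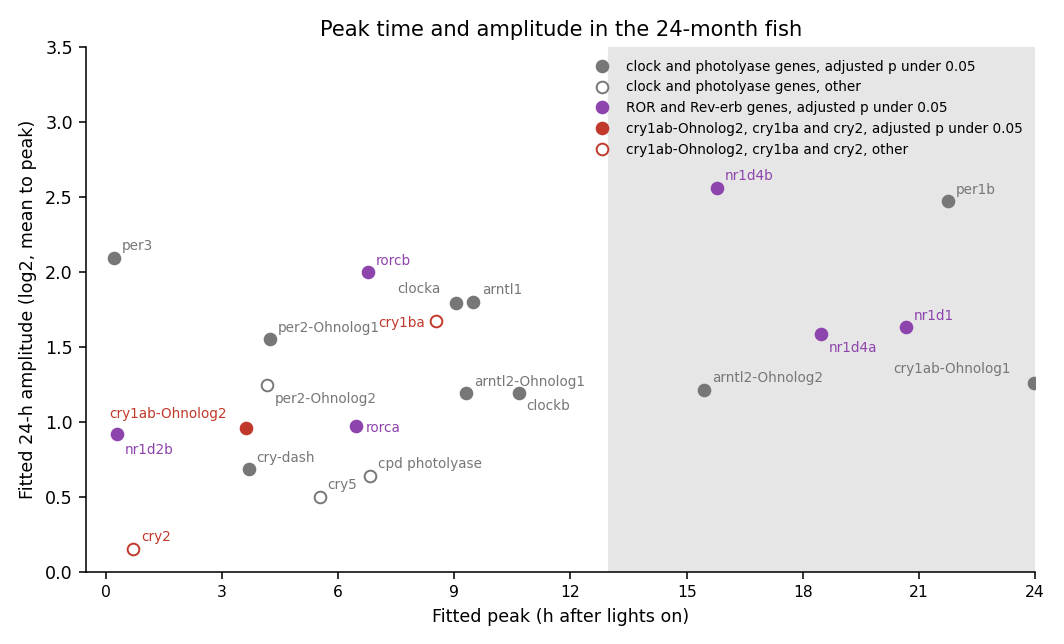
Fitted peak in Zeitgeber hours (horizontal axis) and fitted 24-h amplitude on the log2 scale (vertical axis) of the 3 cryptochromes, 13 other clock and photolyase genes and 6 nuclear receptor genes in the 24-month fish; filled points had an edgeR adjusted p under 0.05 and the dark phase is grey. Cry2 has the smallest amplitude, 0.15, and cry1ba, at Zt 8.54, lies beside clocka and arntl1.

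The 2 copies of cry1ab ran in different phases. Cry1ab-Ohnolog1 was highest at 5AM (97.2 CPM) and lowest at 8PM (11.8 CPM) in the 24-month fish. There cry1ab-Ohnolog2 was highest at 11AM and lowest at 11PM and 2AM, with means of 48.2 and 48.6 CPM and overlapping fish. The share of cry1ab-Ohnolog1 in the 4-gene sum was 39.6 ± 2.19% at 5AM and 6.09 ± 0.88% at 8PM (SD, n = 2 each), the times at which the cry1ba share was near its lowest and at its highest. The exact permutation test of light against dark gave cry1ab-Ohnolog1 −13.1 percentage points with an adjusted p of 0.0599.

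Receptors of the ROR and Rev-erb kind bind elements in the cry1 gene in mammals, as activators and repressors. All 6 genes of this list passed the cosine test, beside 1.5% of all genes tested. The list leaves out the Rev-erb gene nr1d2a and was chosen with earlier results of these data known, so this count is a description only. Rorca (Zt 6.46) and rorcb (Zt 6.78) were fitted between the peaks of cry1ab-Ohnolog2 and cry1ba, and nr1d4b (Zt 15.8), nr1d4a (Zt 18.47) and nr1d1 (Zt 20.7) were fitted in the dark, with nr1d2b at Zt 0.30. In the comparison of light with dark, rorcb was 2.73 ± 0.36 (SE) and rorca 1.41 ± 0.23 (SE) higher in the light on the log2 scale, and nr1d4a fell by 2.40 ± 0.30 (SE), with edgeR adjusted p values of 0.00382, 0.0481 and 0.00276. In the contrast for a midday dip none of the 13 and none of the 6 genes passed in edgeR.

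The genes with the pattern most like each cryptochrome were ranked by Pearson's r of log2(CPM + 0.5) over the 24 libraries among 16698 other genes, as a description. Library depth and the collection are shared by these points, which include fish A at 5PM of the 24-month fish. No ranking without that fish is given. For cry1ab-Ohnolog2 they were lonrf1l (r = 0.895), NADK (0.872), an NAD kinase gene, and soat1 (0.861), which encodes a sterol acyltransferase, all highest at 11AM in the 24-month fish. For cry1ba they were tbl1x (r = 0.894), LONRF3 (0.882) and npas2 (0.876), a partner of Arntl related to Clock. Tbl1x and npas2 were highest at 8PM in the 24-month fish and LONRF3 at 11AM. For cry2, arhgef19 (r = 0.829), tsc2 (0.803) and mpp7a (0.793) came first, and their highest 24-month means fell at 11AM, 5AM and 11AM.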

How the data were processed

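The authors mapped paired reads with TopHat2 and counted them per Ensembl gene with featureCounts, per the labels' processing notes, which give no versions, and deposited 1 table of raw counts for 24 skin libraries. Columns that belong to no sample numbered 0. Gene names come from the study's supplementary tables, which name 11873 of 24209 IDs. No sequence is printed.

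Here, counts were tested with edgeR 4.0.16 (TMM scaling, filterByExpr, quasi-likelihood, R 4.3.3), with Benjamini-Hochberg adjustment over all genes tested at 0.05, and DESeq2 1.42.0 as an alternative. CPM used total counts. Expressed genes had a mean above 1 CPM at 2 or more times. The rank and permutation tests were written in Python 3.11.15. Scripts were tested on simulated data. Members, gene lists and tests were chosen with earlier results of these data known. Genes named are the members, cry1ab-Ohnolog1, 12 further clock and photolyase genes, 6 nuclear receptors and the 3 genes most like each member. Alternatives were other scalings, no filter, DESeq2, each library left out, and the replicate letter as a block.

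Replicate letters were checked by correlating the deviation of 1 lettered fish from its pair's mean between times: r ran from −0.25 to 0.10 for letters A and B and from −0.06 to 0.28 for C and D in the 24-month fish, and from 0.16 to 0.39 in the 12-month fish. Only in the 12-month fish was r positive for every pair of times, but its range overlapped that of letters C and D, and the difference was not tested. The main tests of both collections nevertheless left the letters out, and they entered only in the alternative with a block. Among the 4 times of the 12-month fish, 9093 genes passed in edgeR with the block and 8208 without it. Every pair of replicates differed by more than sampling noise. Markers matched were 3 of 10 for skin epithelium, 4 of 6 for dermis, 3 of 8 for pigment cells (5.28 to 25.7 CPM), 5 of 10 for muscle and 1 of 5 for red blood cells.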

Additional observations from a re-analysis of the deposited data

Results flagged for a closer look

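In 20 sets of 4 to 10 fish, the highest or lowest value was checked for a wide gap to its neighbour, and chance marks about 1 set in 20. Both marked values concern genes described above. The log2 ratio of cry1ba to cry1ab-Ohnolog2 in fish A at 5PM of the 24-month fish was −3.70, while the other 3 evening fish of that collection lay between 0.04 and 0.55, and the gap took 0.88 of the range. The same fish had 6.41 CPM of per2-Ohnolog2, against 79.4 CPM in fish B. In the light phase of the 12-month fish, cry2 of fish A at 2PM was the lowest of 6, at 4.09 on the log2 CPM scale (17.02 CPM), with a gap of 0.64 of the range.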

How the results depend on the processing

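Counts of genes called for a difference among the 8 times were 152 with total-count scaling, 4200 in DESeq2 and 35 with the replicate block. For the cosine they were 1692 in DESeq2, 177 with the replicate block and 3065 with all 24 libraries. For the 12-h wave, DESeq2 called 545 and all 24 libraries gave 3, and for the midday dip DESeq2 called 2. For light against dark, DESeq2 called 68 and all 24 libraries gave 104, and for the time course between collections DESeq2 called 4367. Leaving out each fish gave 44 (without fish A at 11AM) to 8918 (without fish B at 5PM) genes among the 8 times, 136 to 1132 for the cosine, 0 to 22 for the 12-h wave and 0 to 6254 for the dip. It gave 3 to 7 for light against dark, 446 to 831 for the rank test, and 210 (without fish A at 8PM of the 12-month fish) to 6451 (without fish C at 2AM) for the time course between collections. The light minus dark share of cry1ab-Ohnolog2 was 10.5 percentage points over all 24 libraries, with an exact permutation adjusted p of 0.0114. That test shuffled fish across the collections and took each fish as independent, so its p does not hold the collection fixed. Within the 24-month and the 12-month fish the exact permutation test did not pass (adjusted p = 0.125 and 0.143). The light minus dark share of cry2 was −8.77 points over all 24 libraries and −5.26 points with the sum over 6 genes. It ran from −7.37 to −3.83 points when each fish was left out. The evening minus morning log2 ratio ran from 1.08 to 2.49, and was 3.6 for 8PM against 8AM. Of 546 alternatives of the fits and the rank test for the 3 genes, 519 kept the side of the threshold, 11 lost it, 16 gained it and 0 reversed a call. With the replicate block, cry1ab-Ohnolog2 had an edgeR adjusted p of 0.0831 among the 8 times, and no other call of the 3 genes changed. With 2 fish a time, small daily changes of cry2 cannot be seen.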
